A study of Mus musculus with 2 samples.

Results

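The cholesterol synthesis and lipoprotein handling genes are a set of 31 genes, listed by symbol, whose products make cholesterol, take it up, move it out of cells and convert it. They were found by symbol in the annotation of the deposited tables, and all 31 were among the 55536 gene rows. Total RNA was sequenced from left cerebral cortex tissue of 2 B6CASTF1/J males, hybrids of C57BL/6J and CAST/EiJ, at an age of 2 months. Each animal gave 1 library from 300 ng of RNA with ERCC spike-ins, and the labels number them replicate 1 and replicate 2 of a single group. No treatment or engineered allele is listed for either animal, so the design holds no comparison of conditions, and the values describe levels, transcript forms and the difference between the animals.

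Cholesterol is built from acetyl-CoA through mevalonate, farnesyl diphosphate, squalene and lanosterol by a chain of enzymes, most of them in the endoplasmic reticulum. The genes of the chain are switched on together by the SREBP transcription factors, which the escort protein SCAP carries out of the endoplasmic reticulum when sterols are low and INSIG proteins hold back when sterols are high. The brain makes its own cholesterol behind the blood-brain barrier, passes it between cells on lipoprotein particles that receptors of the low density lipoprotein receptor family take up, and disposes of it mainly as a hydroxylated form made in neurons.

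Promoter letters are shown first because the synthesis genes share a motif there. RefSeq promoters (GRCm38.p6, the build also called mm10) were matched by symbol for 26 of the 31 genes, and Fdps, Fdft1, Sqle, Abcg1 and Stard4 had no entry. The 250 bases before each annotated start were searched on both strands for the CCAAT box (CCAAT), the GC box (GGGCGG), a sterol regulatory element core (CACCCCAC), the E-box (CACGTG) and the TATA box (TATAAA). Matches of different motifs were counted separately and could overlap, and a gene with several annotated starts counted once if any window held the motif. The windows of Hmgcs1 (HMG-CoA synthase, chr13:119690101-119690350, plus strand), Mvk (mevalonate kinase, chr5:114444019-114444268, plus strand), Msmo1 (a sterol methyl oxidase, chr8:64733579-64733828, minus strand) and Cyp46a1 (the neuronal cholesterol hydroxylase, chr12:108334066-108334315, plus strand) are given 5′ to 3′ as examples with many and with few boxes. Capitals mark CCAAT on either strand, which reads ATTGG where it lies on the other strand, and CACCCCAC.
Hmgcs1: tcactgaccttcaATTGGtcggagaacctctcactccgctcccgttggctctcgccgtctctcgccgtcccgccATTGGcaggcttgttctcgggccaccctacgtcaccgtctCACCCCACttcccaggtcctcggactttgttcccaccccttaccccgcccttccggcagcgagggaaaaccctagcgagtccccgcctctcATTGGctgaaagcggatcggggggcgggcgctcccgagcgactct
Mvk: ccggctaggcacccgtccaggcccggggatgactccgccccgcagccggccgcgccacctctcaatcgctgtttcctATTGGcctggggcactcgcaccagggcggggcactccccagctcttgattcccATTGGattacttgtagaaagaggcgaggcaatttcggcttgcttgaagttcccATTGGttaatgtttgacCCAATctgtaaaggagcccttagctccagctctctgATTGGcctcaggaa
Msmo1: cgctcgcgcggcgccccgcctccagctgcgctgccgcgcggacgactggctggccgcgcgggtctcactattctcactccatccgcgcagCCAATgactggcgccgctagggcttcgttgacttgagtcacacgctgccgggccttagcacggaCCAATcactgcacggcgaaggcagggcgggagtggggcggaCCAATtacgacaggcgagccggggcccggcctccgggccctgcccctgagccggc
Cyp46a1: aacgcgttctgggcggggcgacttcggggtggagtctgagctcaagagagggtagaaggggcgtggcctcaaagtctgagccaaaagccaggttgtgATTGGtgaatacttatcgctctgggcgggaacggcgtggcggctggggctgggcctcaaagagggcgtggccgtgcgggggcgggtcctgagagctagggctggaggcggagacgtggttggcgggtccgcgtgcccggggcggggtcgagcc

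The CCAAT box, known as the binding sequence of the factor NF-Y, was in 21 of the 26 matched genes, and in 40.1% of the 11310 protein-coding genes that had a promoter and enough reads to be compared between the animals. Among the synthesis enzymes it was in 14 of 15, the exception being Acat2, and among the other matched genes in 7 of 11. Mvk had 5 boxes in its window, and Hmgcs1, Msmo1, Hsd17b7 and Insig2 had 3 each. At least 2 boxes in 1 window were found for 10 of 26 genes, 9 of them synthesis enzymes, against 14.4% of the compared protein-coding genes. Within the last 100 bases before the start a CCAAT box was found in 13 of 15 synthesis enzymes, against 25.5% of those genes. That distance and the choice of motifs were set with the promoters in view, so the shares are descriptions.

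The GC box, known as a binding sequence of Sp1, was in 23 of 26 genes and 14 of 15 synthesis enzymes, against 62.7% of the compared protein-coding genes. The mean GC content was 60.7% in the windows of the synthesis enzymes and 53.2% in all promoter windows, a wider set. No mean was taken over the compared protein-coding genes alone. The exact core CACCCCAC was in 2 of 26 genes, Hmgcs1 and Acat2, against 3.46%. The E-box was in 6 of 26 genes against 9.52%, and the TATA box in 2 of 26 against 8.12%. A match is only a run of letters, and binding was not measured.

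**Figure D1:**
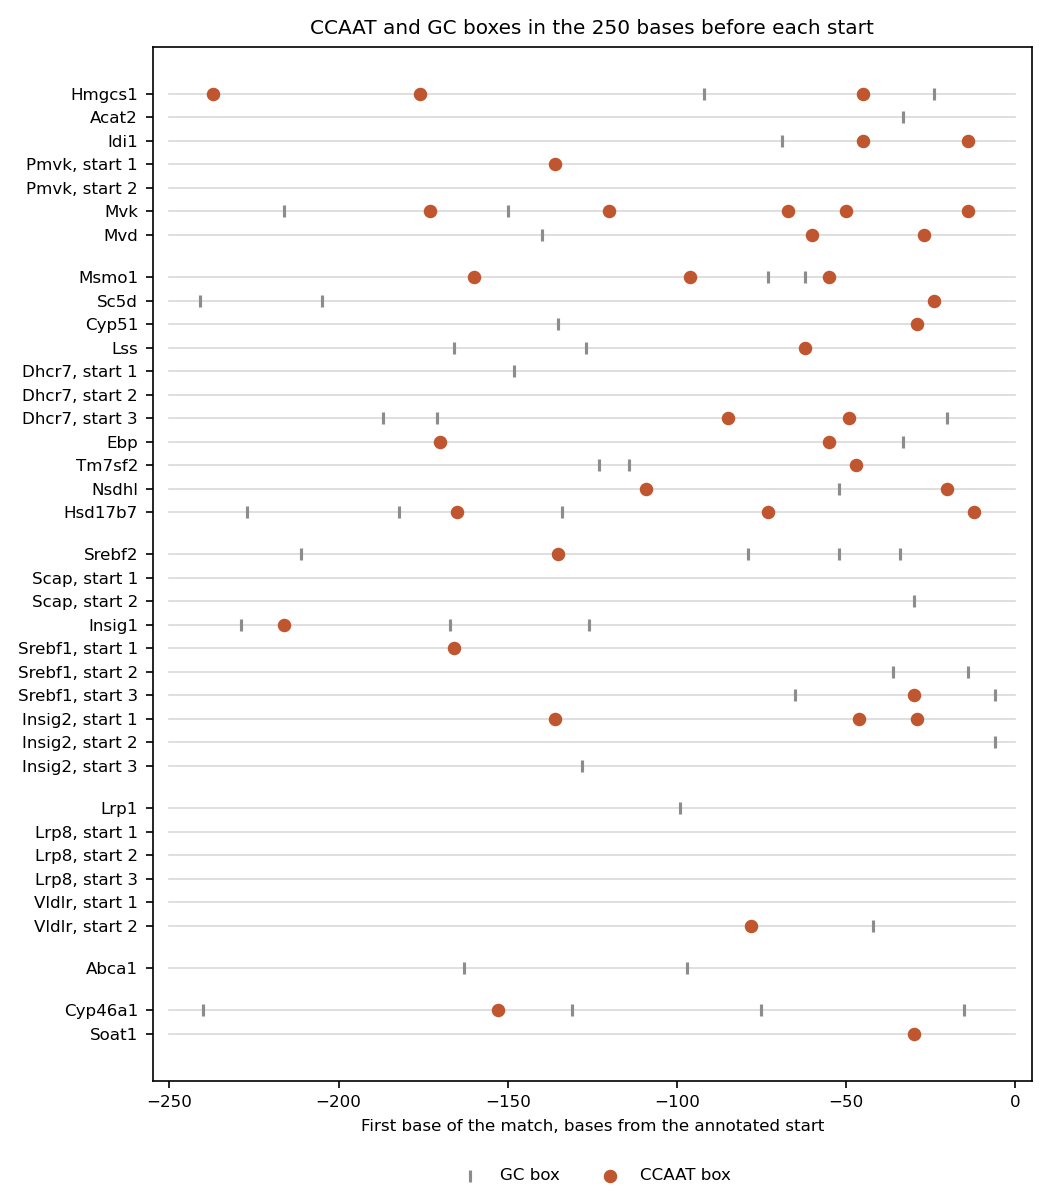
CCAAT boxes (circles) and GC boxes (ticks) in the 250 bases before each annotated start of the 26 matched genes, 1 line per start; the x axis is the distance of the first base of the match from the start, in bases. Circles are found in 14 of the 15 synthesis enzymes, the first 18 lines, and 13 of those 15 have 1 within 100 bases of a start.

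The libraries held 32866391 expected counts on genes in replicate 1 and 32032103 in replicate 2, where an expected count is a read number estimated when reads fit several genes or transcripts. Spike-ins took 0.428% and 0.345% of counts. Levels are given as deposited TPM, transcripts scaled to a fixed sum after correction for length, as mean ± SD over the 2 animals unless both values are given. A second deposited set of values, estimated directly from the reads, is called the other quantification. TPM sums to the same total in both sets. Nuclear protein-coding genes held 46.6% and 45.6% of it in the main set and 76.0% and 76.4% in the other. Each of the 31 genes was higher in the other set, from 1.10-fold for Soat1 to 2.03-fold for Insig2. The median of 1.54-fold was close to the 1.57-fold of all detected nuclear protein-coding genes. Spearman's rho between the sets over the 31 genes was 0.987 as a description. Markers of the labelled tissue were present: all 6 excitatory neuron markers were detected, with sums of 2661 TPM in replicate 1 and 2744 TPM in replicate 2.

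All 31 genes were detected at 1 TPM or more in both animals. Of them 20 lay above 15.9 TPM, the median of the 12921 nuclear protein-coding genes detected. Lrp1, Cyp46a1, Hmgcs1 and Srebf2 were the highest, in that order by mean, and Hsd17b7 was the lowest. In the other quantification Cyp46a1 averaged 179.9 ± 1.71 TPM, Lrp1 165 ± 24.4, Hmgcs1 163 ± 0.764 and Srebf2 125 ± 6.93 TPM, so the same 4 genes led, with Lrp1 second by mean. The ranges of the 2 animals overlapped for 18 of the 30 pairs of neighbours in the order of levels. Lrp1 overlapped Cyp46a1, while Cyp46a1, Hmgcs1 and Srebf2 were each separate from the next gene. In forms with at least 90% of the longest coding sequence, Lrp1 had 81.2 TPM in replicate 1 and 87.9 TPM in replicate 2. On that basis Lrp1 stood below Cyp46a1, at 112 and 107 TPM, and Hmgcs1, at 98.1 and 98.5 TPM. The 4 leading genes come from 4 different roles: uptake, disposal, synthesis and control. In bulk tissue, fewer cells of a type and less RNA per cell cannot be told apart.

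**Figure D2:**
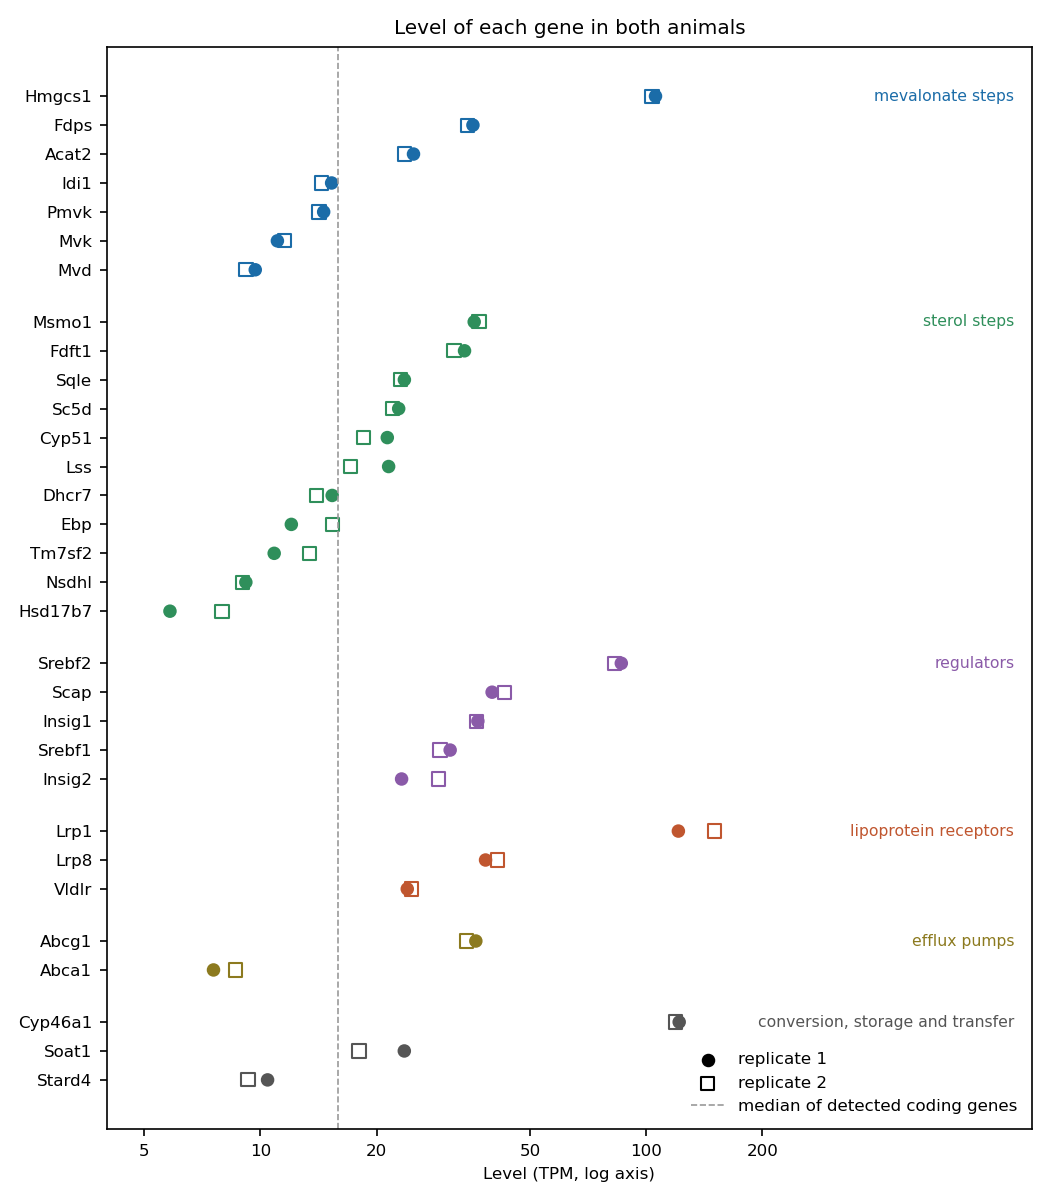
Level of each of the 31 genes in TPM (log axis) in replicate 1 (filled circles) and replicate 2 (open squares), grouped by role; the dashed line is the median of detected protein-coding genes, 15.9 TPM. Lrp1, Cyp46a1, Hmgcs1 and Srebf2 stand to the right of all other genes in both animals.

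Among the 7 enzymes of the mevalonate steps, 1 gene stood far above the rest. Hmgcs1, which makes HMG-CoA from acetoacetyl-CoA (chromosome 13, 119690379 to 119708260), had 106 TPM in replicate 1 and 104 TPM in replicate 2, or 24.6% and 24.7% of the sum of the 18 synthesis enzymes. The other 17 synthesis enzymes lay between 5.83 and 36.9 TPM in single animals. Fdps, which builds farnesyl diphosphate, had 35.6 TPM in replicate 1 and 34.5 TPM in replicate 2. Acat2, the cytosolic thiolase that supplies acetoacetyl-CoA, was next at 24.3 ± 0.940 TPM. The 4 enzymes between mevalonate and farnesyl diphosphate were lower: the isomerase Idi1 averaged 14.8 ± 0.643 TPM, phosphomevalonate kinase Pmvk 14.4 ± 0.283, mevalonate kinase Mvk 11.3 ± 0.339 and the decarboxylase Mvd 9.44 ± 0.368 (SD, n = 2).

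The 11 enzymes that turn farnesyl diphosphate into sterols covered a narrower range, without a single dominant gene. By total TPM Msmo1, which removes methyl groups from the sterol ring, was highest with 35.8 TPM in replicate 1 and 36.9 TPM in replicate 2. The squalene synthase gene Fdft1 had 33.8 TPM in replicate 1 and 31.8 TPM in replicate 2, and squalene epoxidase Sqle had 23.6 and 23.0 TPM. Fdft1, the first enzyme committed to sterols, exceeded Sqle, the next enzyme in the chain, 1.41 ± 0.0374-fold, and in both animals. In total TPM the desaturase gene Sc5d averaged 22.4 ± 0.580, the lanosterol demethylase gene Cyp51 19.9 ± 1.97 and the lanosterol synthase gene Lss 19.3 ± 3.10. Of the Lss total, only 4.67 TPM in replicate 1 and 4.38 TPM in replicate 2 lay in such forms. Dhcr7, the reductase of the last step of one branch, averaged 14.7 ± 0.976 TPM and the isomerase gene Ebp 13.7 ± 2.37. The sterol reductase gene Tm7sf2 averaged 12.1 ± 1.80 TPM, and the enzymes that act with Msmo1 on the methyl groups, Nsdhl and Hsd17b7, averaged 9.08 ± 0.134 TPM and 6.89 TPM, the last from 5.83 TPM in replicate 1 and 7.95 TPM in replicate 2.

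Sterol steps and mevalonate steps gave nearly equal sums, 212 and 217 TPM in replicate 1 and 209 and 211 TPM in replicate 2. The median enzyme of the sterol steps was 1.29 ± 0.145 times that of the mevalonate steps, and above it in both animals. Of the 18 synthesis enzymes 9 lay above the median of detected protein-coding genes and 9 below. By total TPM, the 3 enzymes that work in turn on the methyl groups of the ring were spread widely. Msmo1 lay near the top of the sterol steps, and Nsdhl and Hsd17b7 lay at the bottom. In forms with at least 90% of the longest coding sequence, Nsdhl was not at the bottom. There Nsdhl had 9.05 TPM in replicate 1 and 8.74 TPM in replicate 2, above Tm7sf2, Hsd17b7, Lss and Ebp in both animals. On that basis Msmo1 had 23.03 and 22.79 TPM, and Hsd17b7 had 4.77 and 5.91 TPM.

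The regulators were led by Srebf2, the SREBP factor best known for the cholesterol genes (chromosome 15, 82147181 to 82205379), at 86.2 TPM in replicate 1 and 82.8 TPM in replicate 2. Srebf1, whose products are best known for fatty acid genes, had 31.04 TPM in replicate 1 and 29.2 TPM in replicate 2. Srebf2 exceeded Srebf1 2.81 ± 0.0410-fold. Scap, the escort of both factors, averaged 41.4 ± 2.10 TPM. The genes of both retention proteins were above the median of detected protein-coding genes, with Insig1 at 36.6 TPM in replicate 1 and 36.3 TPM in replicate 2, and Insig2 at 23.2 and 29.0 TPM. Insig1 exceeded Insig2 in both animals, by 1.41 ± 0.230-fold, and by 1.11 ± 0.0864-fold in the other quantification.

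The 3 lipoprotein receptors differed in level in both animals. Lrp1, a large receptor that takes up lipoproteins and many other ligands (chromosome 10, 127538161 to 127621148), had 121 TPM in replicate 1 and 151 TPM in replicate 2. Lrp8 and Vldlr are the receptors of the signalling protein reelin as well as lipoprotein receptors. Lrp8 had 38.3 TPM in replicate 1 and 41.2 TPM in replicate 2, and Vldlr had 24.03 and 24.7 TPM. Lrp1 exceeded Lrp8 3.41 ± 0.353-fold, and Vldlr was at 0.613 ± 0.0194 of Lrp8, a ratio that came out as 0.613 ± 0.00359 in the other quantification.

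Of the efflux pumps, which load cholesterol onto lipoprotein particles, Abcg1 was much higher per length than Abca1. Abcg1 had 36.2 TPM in replicate 1 and 34.3 TPM in replicate 2, and Abca1 had 7.56 and 8.63 TPM, a ratio of Abca1 to Abcg1 of 0.230 ± 0.0302. Among the genes of conversion, storage and transfer, Cyp46a1 (chromosome 12, 108334381 to 108362234) had 122 TPM in replicate 1 and 119 TPM in replicate 2. That was second of all 31 genes by mean, though first in replicate 1 and, by mean, in the other quantification. Its total TPM and that of Hmgcs1 kept the same proportion in both animals, at 0.868 for Hmgcs1 over Cyp46a1 in each. The other quantification gave 0.903 in replicate 1 and 0.909 in replicate 2. In forms with at least 90% of the longest coding sequence the proportion was less even. There Hmgcs1 had 98.1 and 98.5 TPM, and Cyp46a1 had 112 and 107 TPM. That pair was added after the values were seen. Soat1, which makes cholesterol esters for storage, had 23.6 TPM in replicate 1 and 18.0 TPM in replicate 2, and the sterol carrier gene Stard4 averaged 9.87 ± 0.813 TPM.

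A wider list of 42 genes around the pathway, which leaves out the 31, put these levels in context. Of these genes 39 were detected in both animals, and Ch25h, Soat2 and Lrp2 were not. Scd2, a fatty acid desaturase, was highest at 262 ± 7.64 TPM, followed by the oxysterol-binding gene Osbpl1a at 144 ± 5.69, the desaturase gene Fads1 at 80.4 ± 0.700, fatty acid synthase Fasn at 75.2 ± 4.16 and the transporter gene Abca2 at 74.1 ± 0.537 TPM. The site proteases that release the SREBP factors, Mbtps1 and Mbtps2, averaged 29.4 ± 1.40 and 14.0 ± 0.0566 TPM. The genes of the oxysterol receptors that control Abca1 and Abcg1 were unequal, with Nr1h2 at 35.4 ± 1.01 and Nr1h3 at 2.31 ± 1.17 TPM. Of the enzymes that make side-chain oxysterols other than that of Cyp46a1, Cyp27a1 was at 2.21 ± 0.339 TPM and Ch25h at 0.290 ± 0.0566 TPM. The last 6 genes, and the 3 that were not detected, were named after their values were seen.

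The animals differed little in this pathway by read counts. Log2 ratios put replicate 1 over replicate 2, with counts scaled by TMM, and a gene was counted as past counting error where the exact 95% interval of its ratio left out 0. With a single animal on each side nothing checks the ratio by replication and no p-value can be given, and the interval covers counting error only. Of the 31 genes 3 were past counting error, against 22.6% of the 18490 genes compared and 27.4% of the 12817 genes whose mean count reached 100, a depth that all 31 genes reached. None was higher in replicate 1, against 11.6% of compared genes, and 3 were lower, against 11.0%. None was past counting error with a log2 ratio of 0.322 or more in size, against 7.06% of compared genes. The median log2 ratio was 0.02 for the 31 genes and -0.00 for all compared genes, and 18 of the 31 ratios were positive and 13 negative.

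The 3 genes past counting error were Lrp1, Lss and Abca1. Lrp1 had 26930 expected counts in replicate 1 and 28930 in replicate 2, a log2 ratio of -0.13 with an interval of -0.16 to -0.11. Lss had 1153 counts in replicate 1 and 1255 in replicate 2, a log2 ratio of -0.15 (-0.27 to -0.04), and Abca1 had 1673 and 1792, a log2 ratio of -0.13 (-0.23 to -0.03). By counts of the whole gene all 3 were lower in replicate 1, and each stayed so in the other quantification, at -0.11, -0.16 and -0.10. In the other quantification 9 of the 31 genes were past counting error, against 24.9% of the genes compared there. The additional 6 genes, Cyp46a1, Srebf2, Abcg1, Fdft1, Acat2 and Idi1, were all higher in replicate 1, by log2 ratios between 0.06 and 0.17, and had the same sign without passing counting error in the main set.

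**Figure D3:**
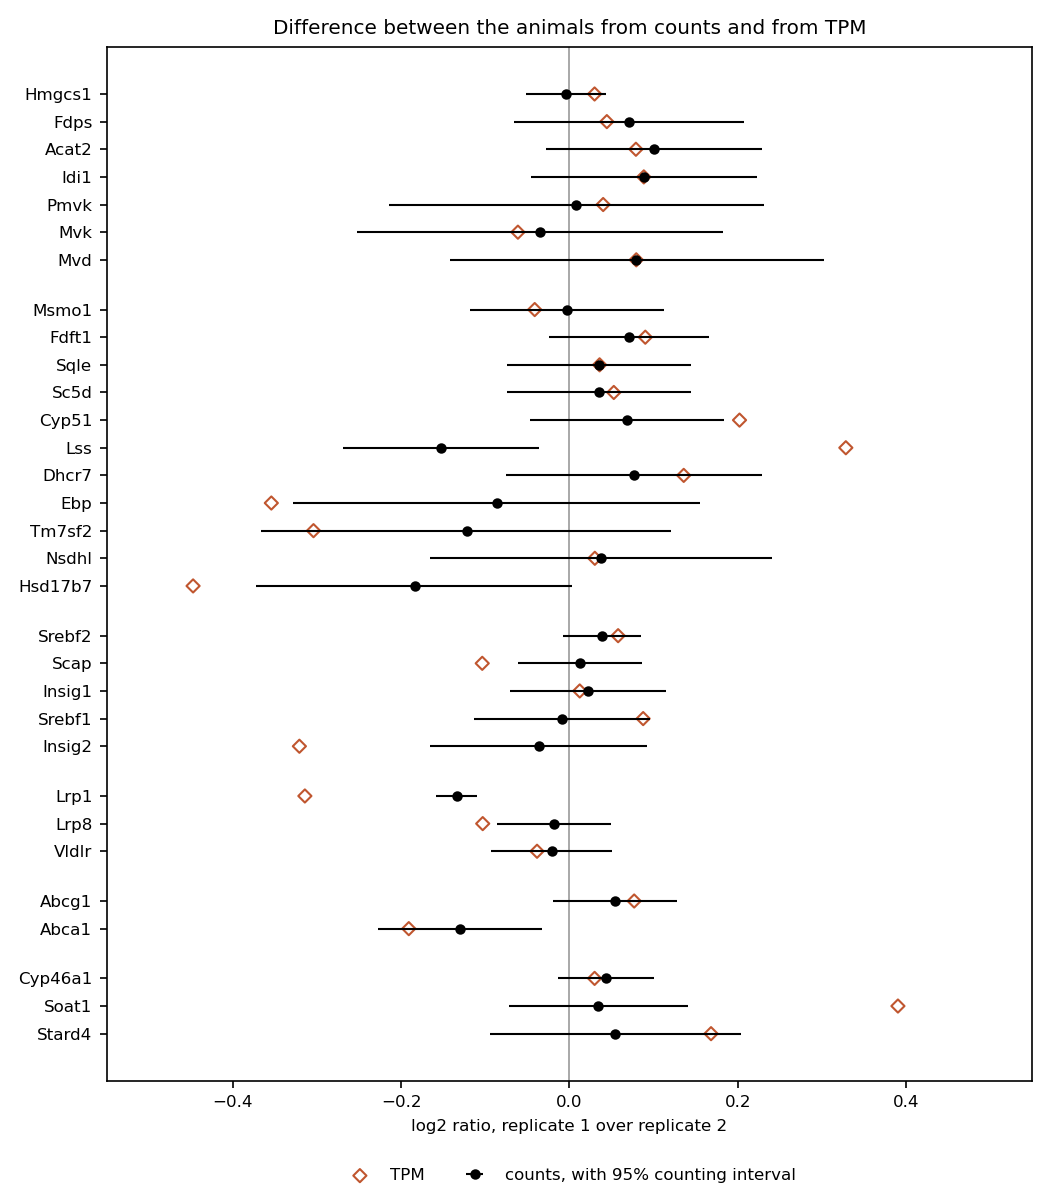
Log2 ratio of replicate 1 over replicate 2 for each gene from counts (points, with the exact 95% counting interval as bars) and from deposited TPM (open diamonds), grouped by role as in the plot of levels. The bars of Lrp1, Lss and Abca1 lie below 0, and the TPM ratio of Lss lies above 0.

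Marker genes of some cell types and regions differed between the animals. All 8 oligodendrocyte markers, the myelin genes among them, were detected and higher in replicate 1 past counting error; their median log2 ratio was 0.28, with sums of 875 TPM in replicate 1 and 710 TPM in replicate 2. All 6 striatal markers were higher as well, with a median of 0.96 and sums of 208 and 119 TPM. Choroid plexus markers, 2 of 5 detected, summed to 11.1 TPM in replicate 1 and 93.2 TPM in replicate 2, of which Ttr alone made up 8.58 and 89.2 TPM. Of the inhibitory neuron markers 4 of 6 were higher in replicate 1 past counting error, with a median of 0.11 and sums of 553 and 512 TPM, and of the red blood cell markers 2 of 3, with a median of 0.13 and sums of 302 and 246 TPM. Of the astrocyte markers 3 of 6 were higher and 1 was lower, with a median of 0.06, and of the excitatory neuron markers 1 of 6 was higher and 1 lower, with a median of -0.01. Past counting error in the same direction as the oligodendrocyte markers were also 2 of 4 markers of their precursors, 1 of 4 of endothelium and 1 of 4 of meningeal fibroblasts, and none of 5 microglial or 4 mural cell markers was past it in either direction. None of these markers was at 0 in both animals, and their part in the ratios of Lrp1, Lss and Abca1 was not tested. Of 4 hepatocyte markers none was detected and 2 were at 0 in both animals.

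Deposited TPM gave another picture for a few genes. The log2 ratio of TPM was 0.322 or more in size for 4 of 31 genes, Hsd17b7, Soat1, Ebp and Lss, against 9.12% of genes whose mean count reached 100. Insig2, at -0.321, lay just short of that size. For all 4 the log2 ratio of counts was smaller than that, against 4.40% of such genes. Soat1 had 1.31 times the TPM in replicate 1 as in replicate 2, but counts of 1474 and 1409 with a log2 ratio of 0.03 (-0.07 to 0.14). Lss had opposite signs, with a log2 ratio of 0.33 from TPM and -0.15 from counts. TPM divides counts by an effective length that is averaged over the transcript forms found in each library. For Lss that length was 2463 bases in replicate 1 and 3431 in replicate 2, and for Soat1 2868 and 3662. The absolute log2 ratio had a median of 0.04 from counts and 0.09 from TPM over the 31 genes, against 0.08 and 0.10 over genes whose mean count reached 100.

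The transcript forms behind this are annotated isoforms whose shares of a gene's TPM the authors' tables give. A form was called full coding where its coding sequence had at least 90% of the length of the longest one of the gene. Full coding forms held a median of 78.2% of TPM over the 31 genes, against 72.4% over 11693 detected protein-coding genes with several forms. Of expected counts they held a median of 93.7% over the 31 genes, against 88.6% over those genes. Under 50% of TPM was full coding for 4 of the 31 genes, against 26.1% of those genes. In the other quantification it was so for 8 of the 31, against 31.2%. In the main set Nsdhl, Abca1, Sqle and Mvd were nearly pure, at 97.9%, 97.7%, 96.8% and 96.7%, and Lss was lowest at 23.7 ± 2.73%. For Mvd this did not hold in the other quantification, where its full coding share was 20.1 ± 28.5%. By the mean of the 2 animals, the same form led in both quantifications for 25 genes, and another form led for 6: Hmgcs1, Mvd, Fdps, Lss, Tm7sf2 and Ebp. Shares of forms are estimates from short reads and not counts of splice junctions.

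**Figure D4:**
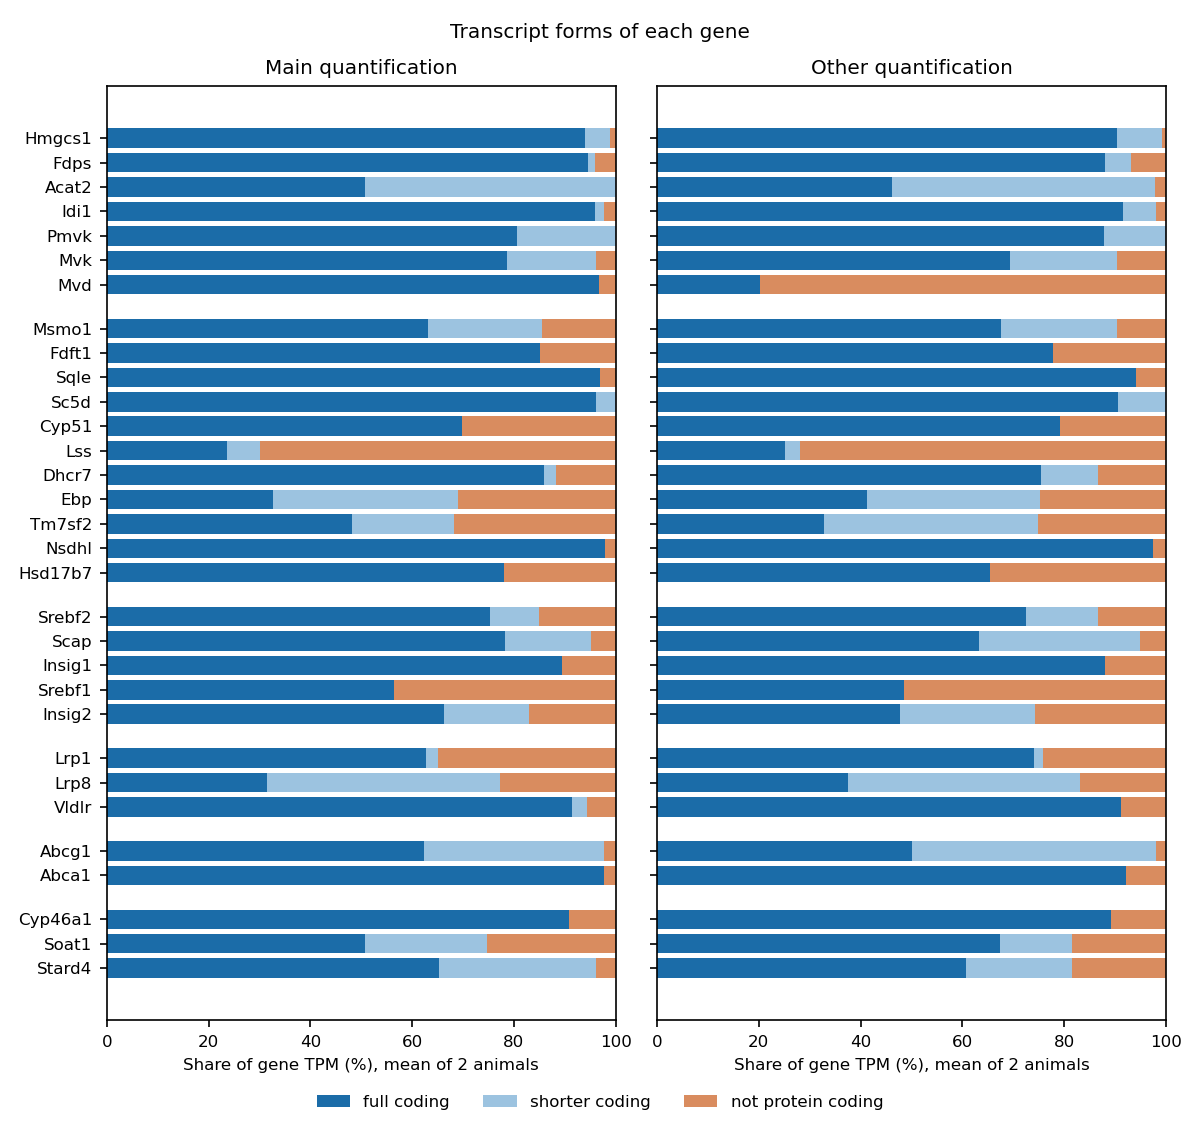
Share of each gene's TPM, as the mean of the 2 animals, in full coding forms, in shorter coding forms and in other forms not annotated as protein coding, in the main (left) and the other quantification (right). Lss has the smallest full coding share in the main set, 23.7%, and Mvd differs most between the sets, with 96.7% on the left and 20.1% on the right.

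For Lss most TPM was in forms with no annotated coding sequence. Lss-202, a processed transcript of 352 bases, made up 35.7% of TPM in replicate 1 and 12.7% in replicate 2, and was at 0 in the other quantification, where the retained-intron form Lss-203 led with 43.5% and 40.2%. The full coding form Lss-201 was at 4.67 TPM in replicate 1 and 4.38 TPM in replicate 2, and with 25.6% it was the leading form in replicate 2. For Soat1, likewise, full coding forms summed to 10.4 TPM in replicate 1 and 10.3 TPM in replicate 2, while the gene's total had differed by 1.31-fold. Its longest form, Soat1-207, made up 24.8% of TPM in replicate 1 and 33.3% in replicate 2. Restricted to full coding forms, only Ebp among the 31 genes had a log2 ratio of 0.322 or more in size, 0.36, at 4.89 TPM in replicate 1 and 3.82 TPM in replicate 2, opposite in sign to its total. The leading form of Ebp differed between the animals in the main set. The full coding Ebp-201 was at 40.6% in replicate 1 and 24.8% in replicate 2. The shorter coding Ebp-203 was at 31.2% and 41.5%. In the other quantification Ebp-201 led in both animals.

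The remaining changes of leading form were of several kinds. For Hmgcs1 both candidates encode the same number of amino acids. Hmgcs1-202 held 70.4% and Hmgcs1-201 23.6% in the main set, and Hmgcs1-201 held 77.1% in the other. Fdps likewise changed between Fdps-201 (93.5%) and Fdps-203 (71.4% in the other set), which also encode the same number of amino acids. For Mvd the change altered the product. The full coding Mvd-201 held 96.7 ± 4.67% in the main set, but Mvd-202, annotated for nonsense-mediated decay, held 79.9 ± 28.5% in the other. For Tm7sf2, Tm7sf2-201 led in the main set at 44.3 ± 8.73% and Tm7sf2-210 in the other at 33.4%. Tm7sf2 shares 532 exonic bases on the same strand with Vps51, which was at 37.6 TPM in replicate 1 and 37.7 TPM in replicate 2, and its division of reads is less certain.

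Srebf1 showed the products of its alternative starts. Srebf1-201 begins with the longer activation segment of the SREBP-1a type, and Srebf1-207 with the short start of the SREBP-1c type. Their first coding exons, from the GENCODE M21 transcripts, lie at chr11:60220453-60220543 and chr11:60210336-60210354 on the minus strand (mm10), and are shown because they are what separates the types. Capitals mark the start codon.
Srebf1-201: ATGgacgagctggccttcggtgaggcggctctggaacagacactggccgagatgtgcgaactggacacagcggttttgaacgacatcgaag
Srebf1-207: ATGgattgcacatttgaag
Srebf1-201 made up 24.1% of the gene's TPM in replicate 1 and 29.0% in replicate 2, and Srebf1-207 held 18.7% and 20.1%. As single forms, Srebf1-201 was the higher of the pair in both animals and in both quantifications. Another full coding form, Srebf1-203, averaged 10.4 ± 1.53% of main-set TPM. Its start type was not determined, so which type is higher when all its forms are summed was not tested. In the other set Srebf1-201 had 26.0% in replicate 1 and 28.4% in replicate 2, and Srebf1-207 had 17.1% and 13.3%. Forms not annotated as protein coding held 43.7% of Srebf1 TPM in the main set, but 8.40% of its expected counts. They were led by Srebf1-204 of 367 bases at 19.5% and 19.3% of TPM, which was at 0 in the other set. Srebf2 was simpler, with Srebf2-201 at 74.5 ± 0.641%, and Cyp46a1-201 held 90.8 ± 1.33% of its gene. Insig2-201 made up 66.4% of Insig2 TPM in replicate 1 and 53.7% in replicate 2. The shorter coding Insig2-212 was at 0 in replicate 1 and 21.2% in replicate 2.

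Both reelin receptors were mixtures of forms that differ by whole exons. For Lrp8, the 177-base exon 19 of Lrp8-209 (chr4:107870012-107870188, plus strand, mm10) adds 59 amino acids to the tail inside the cell, an insert known in mouse for its part in reelin signalling. For Vldlr, the 84-base exon 16 of Vldlr-207 (chr19:27246593-27246676, plus strand, mm10) encodes 28 amino acids of the sugar-carrying stretch outside the membrane. Both exons keep the reading frame and are shown whole because their inclusion is what the shares measure.
Lrp8: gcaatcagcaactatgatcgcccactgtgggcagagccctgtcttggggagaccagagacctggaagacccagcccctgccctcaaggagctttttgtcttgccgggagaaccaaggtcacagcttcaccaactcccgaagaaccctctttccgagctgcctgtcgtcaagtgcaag
Vldlr: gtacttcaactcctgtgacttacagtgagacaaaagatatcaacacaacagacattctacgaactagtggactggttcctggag
Forms with the Lrp8 exon held 43.4% in replicate 1 and 44.4% in replicate 2 of the TPM of forms that hold both neighbouring exons. Forms with the Vldlr exon held 65.0% in replicate 1 and 62.7% in replicate 2. The other quantification gave 45.1 ± 0.665% for the Lrp8 exon and 60.7 ± 1.64% for the Vldlr exon.

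Exons of the ligand-binding ends of both receptors were also partly skipped. The 381-base exon 5 of Lrp8 encodes 127 amino acids of ligand-binding repeats, and the 123-base exon 4 of Vldlr encodes 41 amino acids. Shares are again of the TPM of forms that hold both neighbouring exons. Forms with the exon held 37.9 ± 0.124% for Lrp8 and 77.8 ± 3.27% for Vldlr. The other quantification gave 39.0 ± 0.0272% and 78.0 ± 0.555%. These shares rest on few forms. The exon of 84 bases is in 1 annotated form only, Vldlr-207, which is also the longest at 7971 bases, and without the exon of 177 bases the main form is Lrp8-202, the longest at 6627 bases. Lrp8-209, the form with the longest coding sequence, is annotated for nonsense-mediated decay. It made up 26.6% of TPM in replicate 1 and 28.04% in replicate 2.

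Reads shared between genes touched few of these values. The deposited posterior SD, a measure of how uncertainly reads were divided, was at most 2.32% of the count, for Tm7sf2, and above 0 for 5 genes. Fdft1 overlaps the exons of Ctsb on the opposite strand over 774 bases, 18.3% of its exonic length, and Ctsb was at 223 TPM in replicate 1 and 210 TPM in replicate 2. Cyp51 overlaps Akap9 by 166 bases and Srebf1 overlaps Rai1 by 109 bases, both on the opposite strand. The sources used here do not say whether counting used strand, so reads from these overlaps could belong to either gene. The deposited posterior SD was at most 0.0630% of the count for Fdft1, and 0 for Cyp51 and Srebf1. Whether counting used strand was not tested.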

How the data were processed

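Total RNA of 2 libraries of 1 group was quantified by the authors. The main set of deposited values, at gene and transcript level, holds expected counts and TPM made from an alignment to the transcriptome (build mm10, GENCODE M21), per the file headers and the descriptions beside them. The other quantification, also deposited by the authors, gives estimated counts and TPM per transcript made from the reads themselves, and was summed per gene here. The programs, and whether counting used strand, were not given in the sources used here. Reads of the CAST/EiJ genome copy were set against a C57BL/6J reference, and that effect was not measured.

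Levels are TPM as deposited. A gene counted as detected at 1 TPM or more in each library. For ratios, expected counts were rounded and genes under a mean count of 10 left out. Ratios of replicate 1 over replicate 2 came from TMM-scaled counts with a prior count of 2 (edgeR 4.0.16, R 4.3.3), with exact conditional binomial intervals of Clopper and Pearson at 95%. Reads carried no molecular identifiers, so intervals and floors cover counting error only. A count of 0 allows up to 3 counts, or 0.0913 CPM in replicate 1 and 0.0937 CPM in replicate 2. The procedure was tested on simulated counts drawn with counting error only, which cannot show how the intervals cover other differences between animals. Rows naming no gene held 1.78e-05% and 2.48e-05% of counts and were left out with the spike-ins. The libraries were separate by their counts (chi-square over degrees of freedom 6.42). The labels give separate tissue samples of numbered males, and the shared donor record was taken as a record of the strain.

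The 31 genes, the lists, the motifs, the exons and the measures were chosen with earlier results of these data known. By rule the text names all 31 genes, the 5 highest genes of the wider list, the 2 of it that differed most above a mean count of 100, and forms of 7 genes and of each gene whose leading form changed. Other genes named were chosen after their values were seen. Alternatives were the other quantification, DESeq2 1.42.0 size factors, spike-in scaling, other count minimums, prior counts and pseudocounts, TPM over protein-coding nuclear genes, and each animal left out. A TPM ratio without pseudocount and a TPM fold were added after the data were seen.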

Additional observations from a re-analysis of the deposited data

How the results depend on the processing

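No paired analysis was possible because both libraries belong to 1 group. Absolute levels depended on the quantification: the median of the 31 genes, 23.3 TPM, was 34.3 in the other quantification and 50.6 as TPM over protein-coding nuclear genes, and the sum of the synthesis enzymes, 425 TPM, was 659 and 921. Ratios of levels moved less and stayed on the same side of 1 in both quantifications: in the other one Srebf2 over Srebf1 was 2.66, Insig1 over Insig2 1.11, Lrp1 over Lrp8 2.75, Fdft1 over Sqle 1.52, Hmgcs1 over Cyp46a1 0.906 and sterol over mevalonate steps 1.10. Exon shares there were 45.1% and 39.0% for the Lrp8 exons of 177 and 381 bases and 60.7% for the Vldlr exon of 84 bases. Of the single genes 30 of 31 levels and 27 of 31 full coding shares moved by more than the spread between the animals in the other quantification. With 2 animals, leaving 1 out cannot move a mean by more than the SD, so those values say nothing of stability.

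The median log2 ratio between the animals, 0.02, fell to -0.30 with spike-in scaling, where all genes had a median of -0.32, so relative to all genes it was close to 0 in both; with that scaling all 31 genes were past counting error and lower in replicate 1, against 66.6% of genes in either direction. The count of 3 genes was 9 in the other quantification, 3 with DESeq2 size factors and with no count minimum, and 4 with a count minimum of 100. Depth did not limit detection of any of the 31 genes, but the 95% interval of the lowest counts, such as that of Tm7sf2 (-0.37 to 0.12), spans differences that could not be seen at this depth. With 2 animals the SD has little precision, and effects of age, sex or region cannot be read from 1 group.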

Other observations

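The wider list holds 8 genes of fatty acid synthesis, elongation and desaturation, several of them known targets of the SREBP factors. Among them Scd2 averaged 262 ± 7.64 TPM, Fads1 80.4 ± 0.700, Fasn 75.2 ± 4.16, Scd1 63.9 ± 7.18, Fads2 48.9 ± 1.33, Acaca 35.0 ± 1.24, Elovl5 27.8 ± 1.62 and Elovl6 11.8 ± 0.488 TPM (SD, n = 2). Hmgcs1 alone among the 18 cholesterol synthesis enzymes exceeded Fads1, while Msmo1, the next highest of them by total TPM at 36.4 ± 0.735, was close to Acaca. The family was described after its values were seen.

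Of 39 genes of the wider list that could be compared between the animals, 5 were higher in replicate 1 past counting error, against 11.6% of all compared genes, and 2 were lower, against 11.0%. The median log2 ratio was 0.03. The genes that were higher were Scd2 (0.05), Scd1 (0.14), Lrpap1 (0.16), Elovl5 (0.12) and Npc2 (0.15), and the genes that were lower were Lrp4 (-0.10) and Pdss1 (-0.31). Pdss1 and Stard5 (0.18, interval -0.20 to 0.57) had the largest ratios at a mean count of at least 100.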
